A study of Mus musculus with 21 samples.

Results

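The genes described here are *Ppara*, *Fgf21* and 7 genes known as targets of the receptor that *Ppara* encodes: *Cpt1a*, *Pdk4*, *Ehhadh*, *Cyp4a10*, *Cyp4a14*, *Acot1* and *Acot3*. They were chosen by name, as the probes whose gene name in the scanner files equals one of these 9 symbols, which gave 14 probes of the 41174 on the array and 9 of its 27373 gene names. The samples were RNA from skin, liver and epididymal adipose tissue (fat) of male mice of the C57Bl6/J strain, each hybridised in 1 colour to an Agilent array. All mice, controls included, were 45 weeks old and had eaten a high fat diet from week 5 to week 44. The compared genotypes were JNK1 Knock-out (KO), without the kinase encoded by *Mapk8*, and wild type (WT). The 21 samples were 4 KO and 3 WT skin samples, 3 KO and 3 WT liver samples, and 4 KO and 4 WT fat samples. The labels do not describe the knockout allele or say whether samples came from separate mice, so p-values measure only the spread between these samples, which may be technical.

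PPARA is a nuclear receptor that fatty acids activate. With its partner RXR it binds DNA and raises the transcription of genes that import and oxidise fatty acids in mitochondria, peroxisomes and the endoplasmic reticulum, above all in liver. FGF21 is a hormone that the liver makes under PPARA control and that acts through FGF receptors with the co-receptor beta-klotho (*Klb*). Liver JNK is reported to repress both PPARA and FGF21, which makes the knockout against wild type comparison in each tissue the question addressed here.

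The value used throughout is a log2 level: log2 of the spot intensity minus the 75th percentile of its array, so that 0 is that percentile and 1 unit is a 2-fold step. Levels compare arrays for 1 probe and do not rank genes against each other. On the 20 arrays used, Agilent Feature Extraction set 38.9% to 57.2% of probes well above background. *Mapk8* had levels of -3.22, -4.68 and -4.48 in the liver KO samples and -1.98, -1.68 and -1.61 in the liver WT samples, and in fat -3.35, -2.98, -3.20 and -3.66 in KO against -0.79, -0.96 and -1.0 in WT. In skin it was -4.46, -4.17, -5.18 and -5.24 in KO, and -2.42 and -2.16 in WT 2 and 3. The skin array labelled WT 1 had -4.14, not well above background and just above the highest KO sample, so by *Mapk8* that array goes against its label. It was also a dim array, with 39.5% of probes well above background. Its summed hair follicle, adipocyte and endothelial markers, given below, lay outside the KO range on the side of WT 2 and 3. Its macrophage sum of 114 lay below the KO range (137 to 159), with WT 2 and 3 above it. Whether the label is right was not tested, and the skin value of each tested member is also given without it. Whether the *Mapk8* probe lies in the deleted part is not stated. The scanner file of fat WT 2 correlated across probes with skin arrays at r of 0.860 to 0.912 and with fat arrays at 0.719 to 0.760, so fat was analysed as 4 KO against 3 WT arrays and again, 4 against 4, on the authors' deposited value table. On the arrays used, each tissue had the highest levels of its own marker. Albumin (*Alb*) lay between 9.27 and 10.28 in liver and reached 6.71 elsewhere, in skin. Loricrin (*Lor*) lay between 9.16 and 10.12 in skin and reached 5.34 elsewhere, in liver. Adiponectin (*Adipoq*) lay between 7.64 and 8.47 in fat. It reached -1.46 in liver but 7.60 in skin, so it barely set skin apart from fat.

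2 upstream windows are shown because *Fgf21* and *Cpt1a* were the only members with a match to any exact motif searched. 7 of the 9 members had an entry in the RefSeq promoter table (GRCm38.p6), with 8 windows in all, each the 250 bases before the annotated start. The *Fgf21* window is chr7:45615491-45615740 on the minus strand and the *Cpt1a* window is chr19:3323051-3323300 on the plus strand. Capitals mark the matches.
Fgf21: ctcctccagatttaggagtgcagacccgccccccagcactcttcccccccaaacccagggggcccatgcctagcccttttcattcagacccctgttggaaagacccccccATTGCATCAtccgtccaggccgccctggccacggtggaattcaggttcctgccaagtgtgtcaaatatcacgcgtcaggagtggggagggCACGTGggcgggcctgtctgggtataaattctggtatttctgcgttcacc
Cpt1a: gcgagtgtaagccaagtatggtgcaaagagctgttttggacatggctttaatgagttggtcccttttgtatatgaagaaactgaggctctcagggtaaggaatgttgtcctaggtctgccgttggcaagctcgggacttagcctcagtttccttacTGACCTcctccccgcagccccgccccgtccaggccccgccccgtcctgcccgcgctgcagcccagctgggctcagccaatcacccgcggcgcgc

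Both strands were searched, with the motif list chosen with these windows in view. The *Fgf21* window held TGATGCAAT, the amino acid response element bound by ATF4, on the minus strand of the printed window, starting 140 bases before the start. Of 32841 windows of this length in the table, 0.167% held it. It also held the E-box CACGTG, 50 bases before the start, which 6.02% of windows held. The *Cpt1a* window held the nuclear receptor motif AGGTCA as a single copy, read on the strand opposite to the printed one and 94 bases before the start, as did 14% of windows. A PPAR element is a direct repeat of AGGTCA with 1 base between the copies. No member's window held it exactly (0.0335% of all windows did) or with up to 3 mismatches (21.3% did), which says only that these letters are not in these windows. The AP-1 site TGANTCA was in none of the 8 windows and in 6.75% of all. The E-box reads the same on both strands, and no match overlapped another.

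2 probe sequences are shown, those of *Fgf21*, the hormone, and *Acot3*, the member with the largest difference in liver. Each has an open reading frame through the whole probe. The positions on build mm9, per the scanner files, are chr7:52869680-52870294 for *Fgf21*, where 60 bases span 615 bases of genome, and chr12:85399588-85399647 for *Acot3*.
Fgf21 probe: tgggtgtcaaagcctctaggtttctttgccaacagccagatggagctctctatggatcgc
Acot3 probe: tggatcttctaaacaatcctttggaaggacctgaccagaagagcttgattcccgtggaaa
The longest run that any member's probe shared with a probe of another member was 11 bases. The other probes are at chr15:85631955-85632014 for *Ppara*, chr19:3385374-3385433 for *Cpt1a*, chr6:5433441-5433500 for *Pdk4*, chr16:21761914-21761973 for *Ehhadh*, chr4:115206200-115206259 for *Cyp4a10*, chr4:115158914-115158973 for *Cyp4a14* and chr12:85358452-85358511 for *Acot1*. Which exon or UTR each lies in was not analysed here. *Cyp4a10* and *Cyp4a14*, and *Acot1* and *Acot3*, are neighbours in families of near-identical genes. Their probes may therefore also bind RNA of copies that are not members, and these 4 genes are uncertain to that extent.

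**Figure D1:**
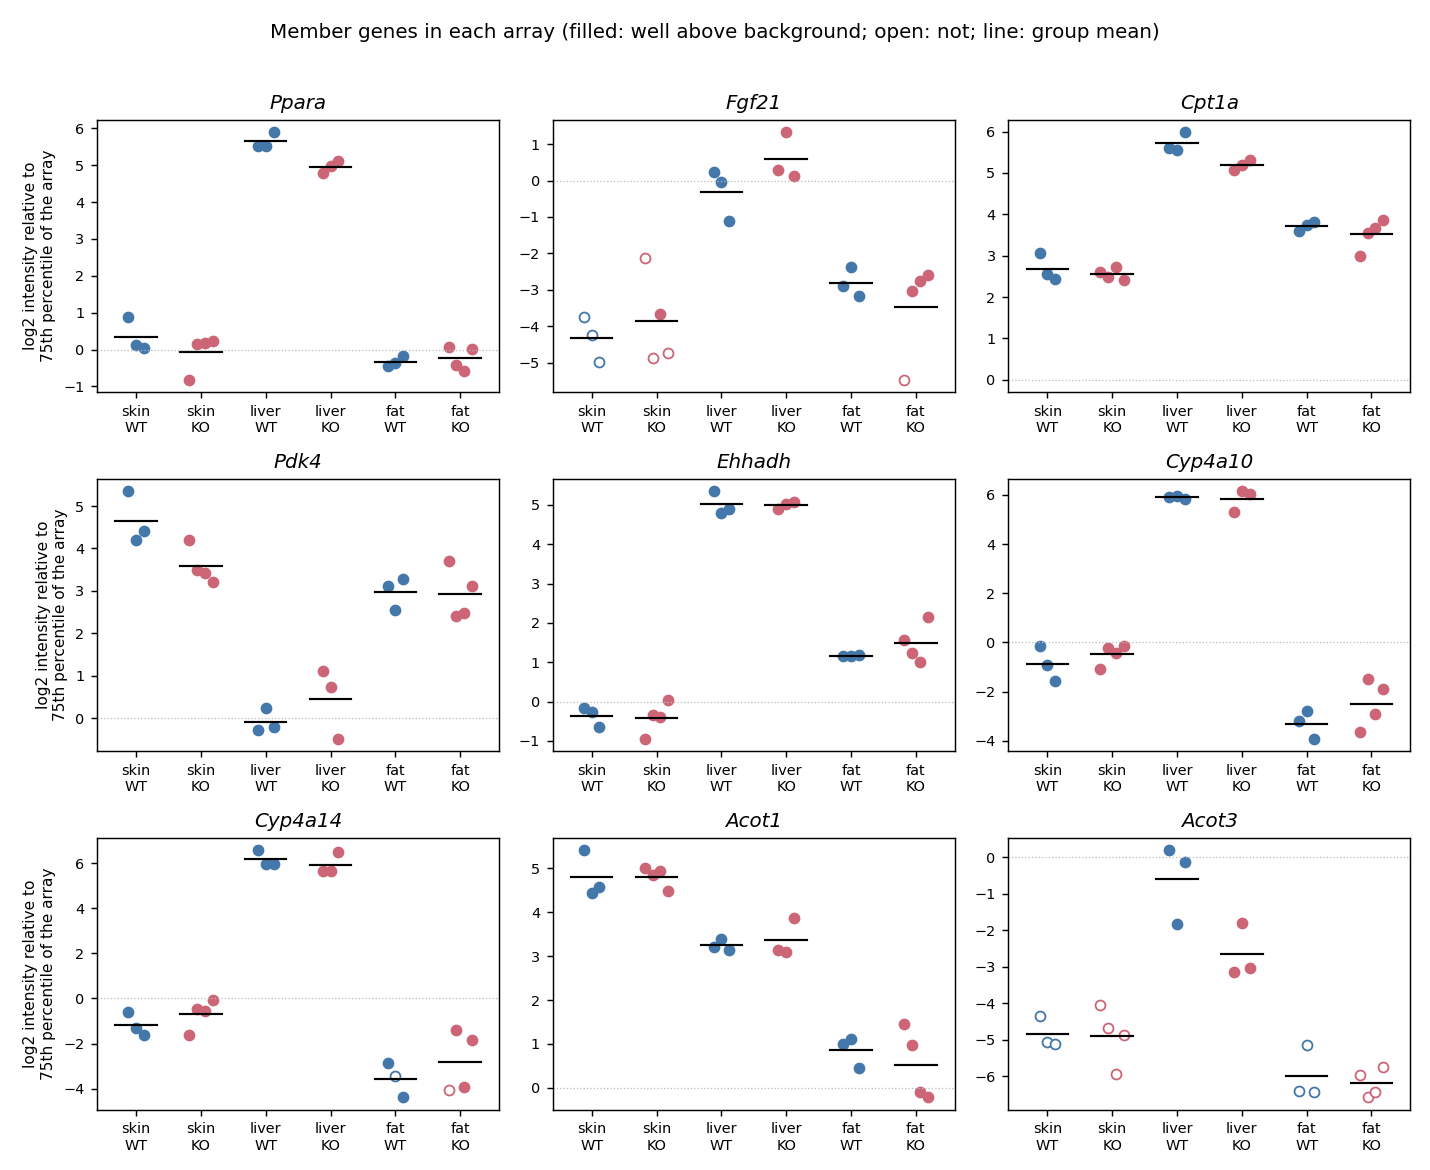
Log2 level of the 9 members above or below the array's 75th percentile (vertical axis) on each of the 20 arrays used, by tissue and genotype (horizontal axis). Filled points were well above background, open points were not, and lines are group means. The tissues lie far apart for most genes, while KO and WT points of a tissue mostly overlap; in liver, all 3 KO points of *Ppara* and *Cpt1a* lie below all 3 WT points.

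None of the members differed between KO and WT after adjustment over all genes tested. With limma and Benjamini-Hochberg adjustment at 0.05, 0 of 9 members were called in liver, where 0.0226% of 13301 genes were. In skin 0 of 7 tested members were called (0.0148% of 13496 genes), in fat 0 of 8 (0.0131% of 15245 genes), and 0 of 8 were called in the value table (0.00656%). At an unadjusted p below 0.05 the members were 3 of 9 in liver (*Ppara*, *Cpt1a* and *Acot3*, all lower in KO), against 6.07% of all genes. In skin it was 1 of 7 (*Pdk4*, lower in KO), against 7.88% of genes. In fat it was 0 of 8, against 7.93%, and likewise 0 of 8 in the value table, against 11.7%. The median KO minus WT difference over the tested members was -0.09 in liver (all genes -0.00), -0.05 in skin (all genes -0.10) and 0.02 in fat (all genes 0.08). As the tissues are bulk samples, fewer cells of a type and less RNA per cell cannot be told apart in any of these values.

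**Figure D2:**
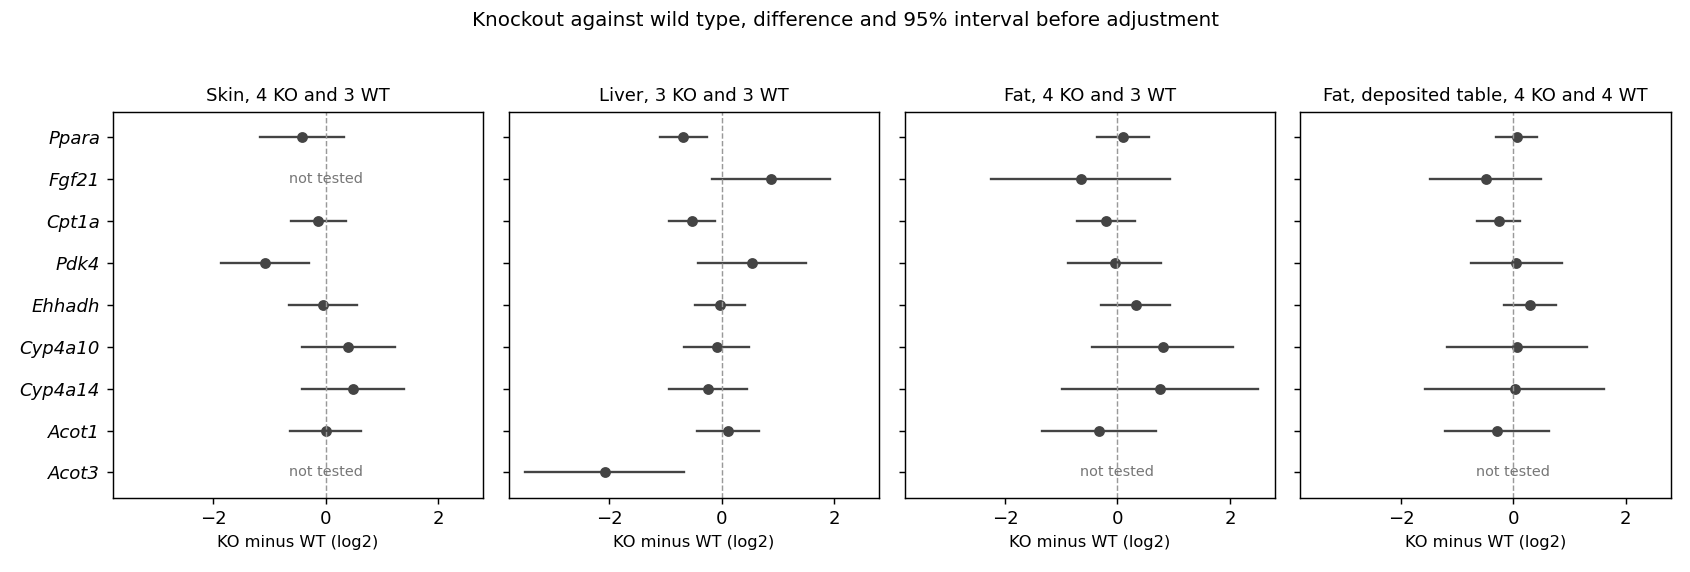
KO minus WT difference in log2 units (horizontal axis) for each member (vertical axis), with its 95% interval before adjustment, from limma in skin, liver and fat arrays and in the fat columns of the deposited table. The intervals of *Ppara*, *Cpt1a* and *Acot3* in liver and of *Pdk4* in skin lie below 0; after adjustment over all genes none passed 0.05.

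*Ppara*, the receptor gene, was lower in every KO liver than in every WT liver. Its levels were 4.79, 4.98 and 5.12 in KO 1 to 3 and 5.52, 5.52 and 5.89 in WT 1 to 3. The groups did not overlap, as for *Cpt1a* among the members; 6.22% of all genes tested had every KO liver below every WT liver. The difference was -0.68 (SE 0.175, 95% interval -1.09 to -0.26), which is 1.6-fold, with an adjusted p of 0.531. It kept its direction in 17 of 17 alternatives, between -1.09 and -0.40, and was called in 0. The value nearest 0 came without liver KO 1, KO 2 and WT 3, the 3 samples with the highest *Lor*, an epidermal gene: -0.40 (adjusted p = 0.442), with KO 3 as the lone KO sample assumed to vary like the others. *Lor* was at 3.29 and 5.34 in liver KO 1 and KO 2 and 4.79 in WT 3, against -0.43 to 0.61 in the other 3 livers. The summed level of the 11 keratinocyte markers, which include *Lor* itself, was 16.6, 50.8 and 8.22 in KO 1 to 3 and 6.74, 5.99 and 37.1 in WT 1 to 3. Of the 11, 5 in each genotype were well above background on none of its liver arrays. *Krt10*, another of the 11, lay between 0.09 and 0.42 across the livers and did not follow *Lor*. *Krt14* was well above background in KO 2 and WT 3 only. Skeletal muscle markers summed to 19.9, 7.49 and 0.637 in KO 1 to 3 and to 3.99, 0.511 and 16.0 in WT 1 to 3. Both sums were thus highest in the 3 livers with the highest *Lor*. The part of keratinocyte or muscle RNA in the liver results was not tested beyond leaving those livers out.

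In skin *Ppara* had levels of -0.82, 0.14, 0.17 and 0.22 in KO, and 0.13 and 0.04 in WT 2 and 3. The array labelled WT 1 was higher, at 0.87. The groups overlapped: KO 1 was the lowest of the 7 and the array labelled WT 1 the highest. The difference was -0.42 (SE 0.329, adjusted p = 0.585). It was -0.16 without the array labelled WT 1, and 0.09, the other direction, without both of these arrays, the dimmest in skin. In fat the levels were 0.06, -0.42, -0.58 and 0.01 in KO and -0.45, -0.36 and -0.18 in WT 1, 3 and 4, which overlap. The fat difference was 0.10 (SE 0.199, adjusted p = 0.907). In the value table, whose log2 scale has another zero, fat KO had 8.44, 7.95, 7.73 and 8.18 and fat WT 7.90, 8.0, 8.03 and 8.14, a difference of 0.06 (adjusted p = 0.903). All 3 tissues differed in WT: liver was above skin by 5.29 (SE 0.277, adjusted p = 5.13e-11) and above fat by 5.98 (SE 0.278, adjusted p = 1.43e-11). Skin was above fat by 0.68 (SE 0.279, adjusted p = 0.0456), a call lost in 8 of 23 alternatives; without the array labelled skin WT 1 it was 0.42 (adjusted p = 0.223).

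*Fgf21*, the hormone gene, had liver levels of 0.28, 1.32 and 0.13 in KO and 0.23, -0.03 and -1.12 in WT. KO 2 was the highest and WT 3 the lowest, and KO 3 lay below WT 1, so the groups overlapped. The difference was 0.88 (SE 0.442, 95% interval -0.16 to 1.93, adjusted p = 0.894), which is 1.84-fold higher in KO without passing the test. A second *Fgf21* probe, whose sequence is 80.0% A and T, had 0.26, -1.31 and -2.25 in KO livers and -0.49, -0.85 and -2.05 in WT livers. By that probe the KO minus WT difference was 0.03, so the probes disagreed, and the mean of both gave 0.46 (adjusted p = 1). Without liver KO 1, KO 2 and WT 3 the first probe gave 0.03 (adjusted p = 0.973).

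In skin the first *Fgf21* probe stood well above background in KO 3 only, at -3.67, of the 4 KO samples and in 0 of the 3 WT samples, so it was not tested there. In fat it was at -5.47, -3.04, -2.75 and -2.60 in KO and -2.90, -2.38 and -3.16 in WT 1, 3 and 4. Fat KO 1 lay far below all other fat samples and was not well above background, and the other 3 KO samples lay inside the WT range. The fat difference was -0.66 (SE 0.681, adjusted p = 0.823), and 0.01 without KO 1. The value table gave 4.13, 5.86, 6.0 and 6.15 in fat KO and 5.79, 5.86, 6.51 and 5.94 in fat WT, with KO 1 again lowest and a difference of -0.49 (adjusted p = 0.664). In WT the liver was above fat by 2.5 (SE 0.727, adjusted p = 0.00656). Against skin, where no WT array measured it, the mean liver level was 6.26-fold above the detection limit (fitted difference 4.01, adjusted p = 0.000119). This limit is the lowest signal that was well above background on each skin array, and it allows for no spread between samples. Over 21 alternatives the fitted skin minus liver difference lay between -4.46 and -1.53. Fat and skin did not differ past the threshold (adjusted p = 0.0854), the mean fat level being 1.10-fold above the same limit. Skin minus fat was called in 2 of 22 alternatives. These were the fit without fat KO 1 (adjusted p = 0.0357) and the slide as a fixed block (difference -1.94, adjusted p = 0.0378). With normexp background it turned to 0.24 (adjusted p = 0.567), the other direction.

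*Cpt1a* encodes the enzyme that commits long-chain fatty acids to entry into mitochondria. Its liver levels were 5.06, 5.19 and 5.32 in KO and 5.61, 5.55 and 5.98 in WT, with no overlap. The difference was -0.52 (SE 0.174, 95% interval -0.94 to -0.11), 1.44-fold, with an adjusted p of 0.7. It was negative in 17 of 17 alternatives, from -0.77 to -0.26, and called in 0. The second *Cpt1a* probe had 1.92, 2.05 and 2.46 in KO livers and 2.63, 2.38 and 2.78 in WT livers, a difference of -0.45 with KO 3 above WT 2. Without liver KO 1, KO 2 and WT 3 the first probe gave -0.26 (adjusted p = 0.603).

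In skin *Cpt1a* lay at 2.61, 2.49, 2.73 and 2.41 in KO and 2.56 and 2.44 in WT 2 and 3, with the array labelled WT 1 at 3.07. Only that array lay outside the KO range, and the difference was -0.13 (SE 0.216, adjusted p = 0.787), or 0.06 without it. In fat it was 2.99, 3.55, 3.67 and 3.86 in KO and 3.60, 3.74 and 3.82 in WT, where KO 1 was lowest and KO 4 highest of the 7. The fat difference was -0.20 (SE 0.219, adjusted p = 0.830), and the value table gave -0.26 (SE 0.169, adjusted p = 0.576). The second probe had 0.00, 0.34, 0.21 and -5.50 in fat KO, the last not well above background, and 0.37, 0.84 and 0.84 in fat WT. Its difference was -1.92, with KO 4 far below the rest, so the probes disagreed in size. In the value table this probe overlapped between groups, KO 2 at 8.54 lying above WT 1 at 8.46. In WT the order was liver, fat, skin, each step past the test: liver above fat by 2.0 (SE 0.217, adjusted p = 4e-07) and skin below fat by 1.03 (fitted difference -1.03, SE 0.217, adjusted p = 0.000739).

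*Pdk4* encodes a kinase that switches off pyruvate dehydrogenase and so spares glucose when fat is burnt. Its skin levels were 4.19, 3.49, 3.42 and 3.21 in KO and 4.19 and 4.42 in WT 2 and 3, with 5.35 in the array labelled WT 1. KO 1 reached the level of WT 2, and the other 3 KO samples lay below every WT sample. The skin difference was -1.08 (SE 0.342, 95% interval -1.86 to -0.30), 2.12-fold, with an adjusted p of 0.555. It was negative in 19 of 19 alternatives and called in 0, and without the array labelled WT 1 it was -0.73 (adjusted p = 0.799). The summed level of 10 skeletal muscle markers, all well above background on every skin array, was 1052, 2981, 1959 and 2936 in KO 1 to 4 and 3496, 2981 and 3741 in WT 1 to 3. All 10 markers were lower in KO (median -0.70, all genes -0.10), and all 10 remained lower without the array labelled WT 1 (median -0.77). The sums of KO 2 and WT 2 were level, and KO 1, with the lowest sum, had the highest *Pdk4* of the KO samples. Hair follicle markers were higher in KO: the 9 on the array summed to 2033, 874, 1698 and 492 in KO 1 to 4 and to 41.2, 199 and 52.0 in WT 1 to 3, without overlap, with 8 of 9 well above background on every skin array. The part of muscle or of hair follicles in the *Pdk4* difference, or in any skin value here, was not tested.

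In liver *Pdk4* had 1.11, 0.73 and -0.48 in KO and -0.28, 0.23 and -0.21 in WT. KO 1 and KO 2 were above all WT livers and KO 3 below them. The difference was 0.54 (SE 0.404, adjusted p = 1), and without liver KO 1, KO 2 and WT 3 it turned to -0.46. In fat the levels were 3.71, 2.42, 2.48 and 3.12 in KO and 3.12, 2.54 and 3.29 in WT, which overlap, with a difference of -0.05 (SE 0.351, adjusted p = 0.977) and 0.05 in the value table. *Pdk4* was the one member lowest in WT liver: skin was above liver by 4.74 (SE 0.422, adjusted p = 2.98e-08) and above fat by 1.67 (SE 0.423, adjusted p = 0.00297), and liver minus fat was -3.07 (SE 0.423, adjusted p = 6.88e-06).

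*Ehhadh*, the bifunctional enzyme of peroxisomal beta oxidation, had liver levels of 4.89, 5.02 and 5.08 in KO and 5.35, 4.80 and 4.91 in WT. The KO samples lay inside the WT range, and the difference was -0.03 (SE 0.186, 95% interval -0.47 to 0.41, adjusted p = 1). In skin the range was -0.94 to 0.03 in KO and -0.65 to -0.16 in WT (difference -0.05, adjusted p = 0.934, or 0.05 without the array labelled WT 1), and in fat 1.0 to 2.14 in KO and 1.15 to 1.18 in WT (difference 0.32, SE 0.264, adjusted p = 0.798). Fat KO 4 was the highest fat sample in the arrays and, at 10.31, in the value table. In WT, liver was above fat by 3.86 (SE 0.269, adjusted p = 1.65e-09) and skin minus fat was -1.52 (SE 0.270, adjusted p = 0.000156).

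*Cyp4a10* and *Cyp4a14* encode omega-hydroxylases of the endoplasmic reticulum, widely used as readouts of PPARA activity in mouse liver. *Cyp4a10* was at 5.29, 6.15 and 6.02 in KO livers and 5.93, 5.95 and 5.85 in WT livers. KO 1 lay below the WT samples and KO 2 and KO 3 above them, with a difference of -0.09 (SE 0.241, 95% interval -0.66 to 0.48, adjusted p = 1). The 3 other *Cyp4a10* probes gave liver differences of -0.00, 0.17 and 0.10. *Cyp4a14* was at 5.63, 5.65 and 6.48 in KO livers and 6.58, 5.95 and 5.95 in WT livers. Here KO 1 and KO 2 lay below the WT samples and KO 3 among them, with a difference of -0.24 (SE 0.294, 95% interval -0.94 to 0.45, adjusted p = 1). These 2 readouts and *Ehhadh* thus had liver differences closer to 0 than *Ppara* did, which was not tested as a difference between genes.

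In fat the highest Cyp4a levels were in the samples with the highest albumin RNA. *Cyp4a10* was at -3.66, -1.49, -2.90 and -1.90 in fat KO and -3.19, -2.79 and -3.91 in fat WT 1, 3 and 4. *Cyp4a14* was at -4.08, -1.41, -3.94 and -1.85 in fat KO and -2.88, -3.46 and -4.39 in fat WT. KO 2 and KO 4 were the highest of the 7 samples for both genes. *Alb*, the hepatocyte albumin gene, was at 1.44, 4.96, 1.97 and 4.31 in the same KO samples and 2.59, 3.51 and 0.15 in the WT samples, so KO 2 and KO 4 were highest there too and WT 4 lowest in all 3 genes. The summed level of 13 hepatocyte markers was 41.7, 61.0, 12.5 and 43.4 in fat KO and 22.2, 29.5 and 7.76 in fat WT, with 9 and 7 of the 13 well above background on every array of the group. KO 2, KO 4 and WT 4 kept their places in that sum, but KO 1 was near KO 4 there while its Cyp4a levels were second lowest of the 7. The fat differences were 0.81 for *Cyp4a10* (SE 0.537, adjusted p = 0.756) and 0.76 for *Cyp4a14* (SE 0.744, adjusted p = 0.815). They shrank to 0.07 and 0.03 in the value table, where fat WT 2, at 7.41 and 7.65, was the highest of the 8 columns for both. The part of liver RNA in these values was not tested. Slide 4, which holds fat KO 2 and WT 4, was the only slide with both genotypes of a tissue. Its KO minus WT difference was 2.42 for *Cyp4a10* and 2.98 for *Cyp4a14*, from 1 sample each. For the other members tested in fat it lay between -0.87 (*Pdk4*) and 0.52 (*Acot1*). For *Ppara*, *Fgf21* and *Acot1* its direction was opposite to that of the fitted fat difference.

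**Figure D3:**
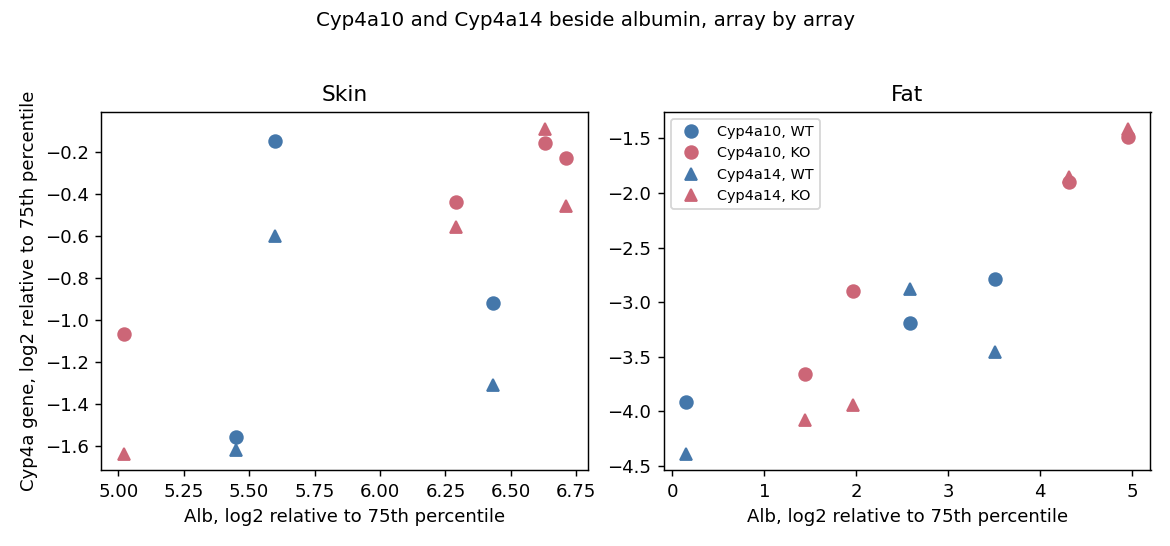
Log2 level of *Cyp4a10* (circles) and *Cyp4a14* (triangles) against that of *Alb* (horizontal axis) in each skin array and each fat array used, all as log2 levels, with WT in blue and KO in red. In fat, the samples with the highest *Alb*, KO 2 at 4.96 and KO 4 at 4.31, also have the highest Cyp4a levels; in skin KO 1, at 5.02, is the lowest for *Alb*.

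In skin *Cyp4a10* was at -1.07, -0.23, -0.44 and -0.16 in KO and -0.92 and -1.56 in WT 2 and 3, with -0.15 in the array labelled WT 1. The groups overlapped through KO 1 and that array, and the difference was 0.40 (SE 0.363, adjusted p = 0.616), or 0.77 without it. *Cyp4a14* ran in parallel, from -1.64 to -0.09 in KO and -1.62 to -0.60 in WT, with a difference of 0.49 (SE 0.398, adjusted p = 0.594), or 0.78 without that array. Skin *Alb* was 5.02, 6.71, 6.29 and 6.63 in KO and 5.6, 6.43 and 5.45 in WT, and the hepatocyte markers summed to 96.9 to 268 in KO and 115 to 197 in WT; their part was not tested. WT liver was above WT fat by 9.21 for *Cyp4a10* (SE 0.476, adjusted p = 4.59e-11) and 9.74 for *Cyp4a14* (SE 0.621, adjusted p = 5.59e-10) (*Cyp4a14* was not well above background in fat WT 3). WT skin was above WT fat by 2.42 (SE 0.477, adjusted p = 0.000409) and 2.40 (SE 0.622, adjusted p = 0.0035), in the direction in which the hepatocyte markers also differed, a median of 3.76 over the 12 tested.

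*Acot1* encodes a cytosolic acyl-CoA thioesterase and *Acot3* a peroxisomal one; both free fatty acids from coenzyme A. *Acot3* showed the largest liver difference of the members. It was at -3.15, -1.79 and -3.04 in KO livers and 0.20, -1.83 and -0.12 in WT livers, well above background on all 6 arrays. KO 1 and KO 3 were below all WT samples, and KO 2 and WT 2 were level, so the groups overlapped there. The difference was -2.08 (SE 0.594, 95% interval -3.49 to -0.67), 4.23-fold, with an adjusted p of 0.605. It was negative in 17 of 17 alternatives, from -2.70 to -0.96, and called in 0. Without liver KO 1, KO 2 and WT 3 it was -2.23 (adjusted p = 0.429).

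*Acot3* was well above background on no skin or fat array and was not tested between genotypes there. Its mean level in WT liver was 12.0-fold above the detection limit of WT fat and 5.18-fold above that of WT skin, set as for *Fgf21*. The fitted differences had adjusted p = 1.62e-07 and 2.6e-06. Over alternatives the fitted difference lay between 2.70 and 6.03 for liver minus fat and between -4.88 and -1.56 for skin minus liver. *Acot1* was at 3.15, 3.09 and 3.86 in KO livers and 3.22, 3.39 and 3.15 in WT livers, with KO 3 the highest. Its difference was 0.11 (SE 0.234, 95% interval -0.44 to 0.66, adjusted p = 1), so it did not show the gap of *Acot3*, and the 2 were not tested against each other. In skin *Acot1* lay between 4.49 and 5.00 in KO and between 4.44 and 5.42 in WT (difference -0.00, adjusted p = 1, or 0.30 without the array labelled WT 1). In fat it was 1.45, 0.97, -0.10 and -0.22 in KO and 1.0, 1.11 and 0.45 in WT, where KO 3 and KO 4 were lowest (difference -0.33, SE 0.434, adjusted p = 0.854; value table -0.29). Across WT tissues the order was skin, liver, fat: skin above liver by 1.56 (SE 0.379, adjusted p = 0.00168) and liver above fat by 2.40 (SE 0.380, adjusted p = 3.21e-05).

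**Figure D4:**
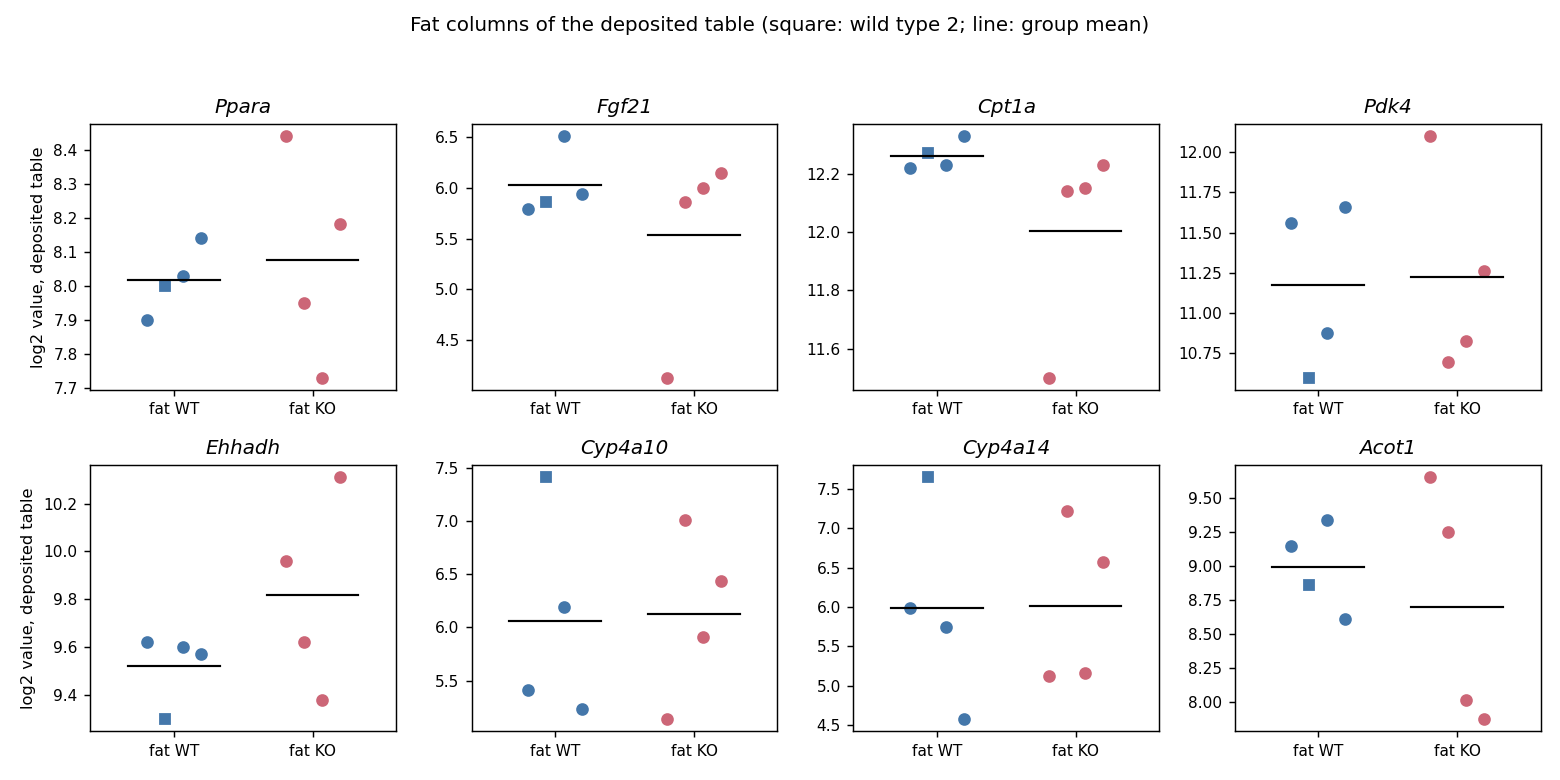
Log2 values of 8 members in the authors' deposited table (vertical axis) for the 4 WT and 4 KO fat columns (horizontal axis), with WT 2 as a square and group means as lines; *Acot3*, not well above background on any fat array, is left out. Fat KO 1 is the lowest column for *Fgf21*, at 4.13, and for *Cpt1a*, at 11.50, and WT 2 is the lowest for *Ehhadh*, at 9.30.

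Across WT tissues 8 of 9 members passed the test as higher in liver than in fat, against 30.1% of genes, and 1, *Pdk4*, as lower, against 31.4%. Between skin and liver 7 of 9 were lower in skin, against 34.7% of genes, and 2 higher (*Pdk4* and *Acot1*), against 29.7%. Between skin and fat 5 of 8 were higher in skin, against 26.6%, and 2 lower (*Cpt1a* and *Ehhadh*), against 30.9%. With normexp background the split over all genes moved from 4801 higher and 5012 lower to 5007 and 3705 in liver against fat, and from 4275 and 4978 to 5073 and 3910 in skin against fat. Among the other genes of the pathway, 17 peroxisomal beta oxidation genes were tested. Of these 16 passed the test as higher in WT liver than in WT fat and 1 as lower (median 2.42, all genes -0.04). Of 20 mitochondrial oxidation genes 12 passed as higher and 1 as lower (median 1.14), with 17 and 3 by direction alone. Of 20 other PPARA targets 8 passed as higher and 8 as lower (median -0.13), with 10 and 10 by direction alone.

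The receptors for FGF21 were spread differently over the tissues. *Klb*, the co-receptor, was higher in WT liver than in WT fat by 0.87 (SE 0.292, adjusted p = 0.0159) and lower in skin than in fat (difference -1.46, SE 0.292, adjusted p = 0.000464). *Fgfr1*, the receptor through which FGF21 acts in fat, was lower in liver than in fat (difference -4.11, SE 0.241, adjusted p = 2.03e-10), while *Fgfr4* was higher in liver than in fat by 5.82 (SE 0.840, adjusted p = 1.17e-05). Between genotypes, *Klb* had 1.83, 2.01 and 2.19 in KO livers and 2.24, 2.04 and 1.85 in WT livers (difference -0.04, adjusted p = 1), and 2.34, 1.21, 1.01 and 1.64 in fat KO against 1.2, 0.82 and 1.52 in fat WT (difference 0.37, adjusted p = 0.807). In skin it was -1.2, -0.51, -0.87 and -0.85 in KO against 0.07, -0.40 and -0.52 in WT, overlapping through KO 2 and WT 3 (difference -0.57, SE 0.239, adjusted p = 0.555, or -0.40 without the array labelled WT 1).

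The KO minus WT difference was also compared between tissues, in 1 fit of all 20 arrays. For liver against fat 0 of 9 members were called (0.0564% of genes) and 1, *Acot3*, had an unadjusted p below 0.05 (4.7% of genes). For skin against fat 0 of 8 were called (0.423%) and 0 had such a p (11.9%). For skin against liver 0 of 9 were called (0.202%) and 2, *Pdk4* and *Acot3*, had such a p (8.06%). For *Pdk4* the skin difference was below the liver difference by 1.62 (interaction -1.62, SE 0.578, adjusted p = 0.485). For *Ppara* the liver difference was below the fat difference by 0.78 (interaction -0.78, SE 0.381, adjusted p = 0.999), which was not called. How large a difference specific to liver these sample numbers could detect was not tested.

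In the pathway lists given here limma called 0 genes in liver, skin or fat between genotypes, so each list is given by its counts. These lists were chosen with earlier results of these data known. In liver, of 19 other PPARA targets tested, 17 were lower in KO and 2 higher, with a median of -0.40 against -0.00 over all genes. Of the 19, 8 had an unadjusted p below 0.05, all lower, against 6.07% of all genes. The 3 with the smallest p were *Cidec* (-2.83, SE 0.692, adjusted p = 0.474), *Vnn1* (-0.80, SE 0.205, adjusted p = 0.531) and *Plin4* (-1.96, SE 0.574, adjusted p = 0.619). *Cidec* and *Plin4* coat or fuse lipid droplets and *Vnn1* encodes the pantetheinase vanin. The list median ranged from -0.64 to -0.31 over 17 alternatives. Without liver KO 1, KO 2 and WT 3 it was -0.64, with 15 of the 19 lower. *Cidec* is also among the 13 adipocyte markers, whose summed level in liver was 244 to 287 in KO and 327 to 387 in WT, without overlap. Of the 13, 10 were well above background on every KO liver array and 9 on every WT one. The sum is of unlogged levels, so its brightest markers carry it, and these need not be specific to adipocytes in liver. Of 10 markers tested 9 were lower in KO and 1 higher (median -0.45). The higher one was *Adipoq*, a defining adipocyte marker, at -1.46, -1.72 and -3.41 in KO and -3.22, -4.55 and -3.2 in WT (difference 1.46, SE 0.588, adjusted p = 0.8). At these levels it adds little to the sum. The part of adipocytes was not tested.

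The oxidation lists lay nearer to the median of all genes in liver. Of 17 peroxisomal genes 13 were lower in KO and 4 higher (median -0.18), with *Pex11a*, a peroxisome division factor, at -0.60 (adjusted p = 0.623) and the thioesterase *Acot4* at -0.65 (adjusted p = 0.762). Of 19 mitochondrial genes 14 were lower and 5 higher (median -0.04), with *Acot2* at -0.83 (adjusted p = 0.730); without liver KO 1, KO 2 and WT 3 this turned to 5 lower and 14 higher (median 0.10, all genes 0.01). The 6 omega oxidation genes had a median of 0.13. Of 18 receptors, partners and corepressors 11 were lower (median -0.05), led by the coactivator *Ppargc1b* at -0.93 (SE 0.173, adjusted p = 0.319) and *Pparg* at -0.69 (SE 0.257, adjusted p = 0.789). Of 9 other inducers of *Fgf21* 5 were higher (median 0.08), the ATF4 gene *Atf4* having the smallest p (0.65, SE 0.291, adjusted p = 0.852). The 8 FGF receptor response genes had a median of -0.13 and the 6 receptors and endocrine FGFs one of 0.00. The 11 genes of fatty acid uptake, binding and activation had a median of -0.07.

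**Figure D5:**
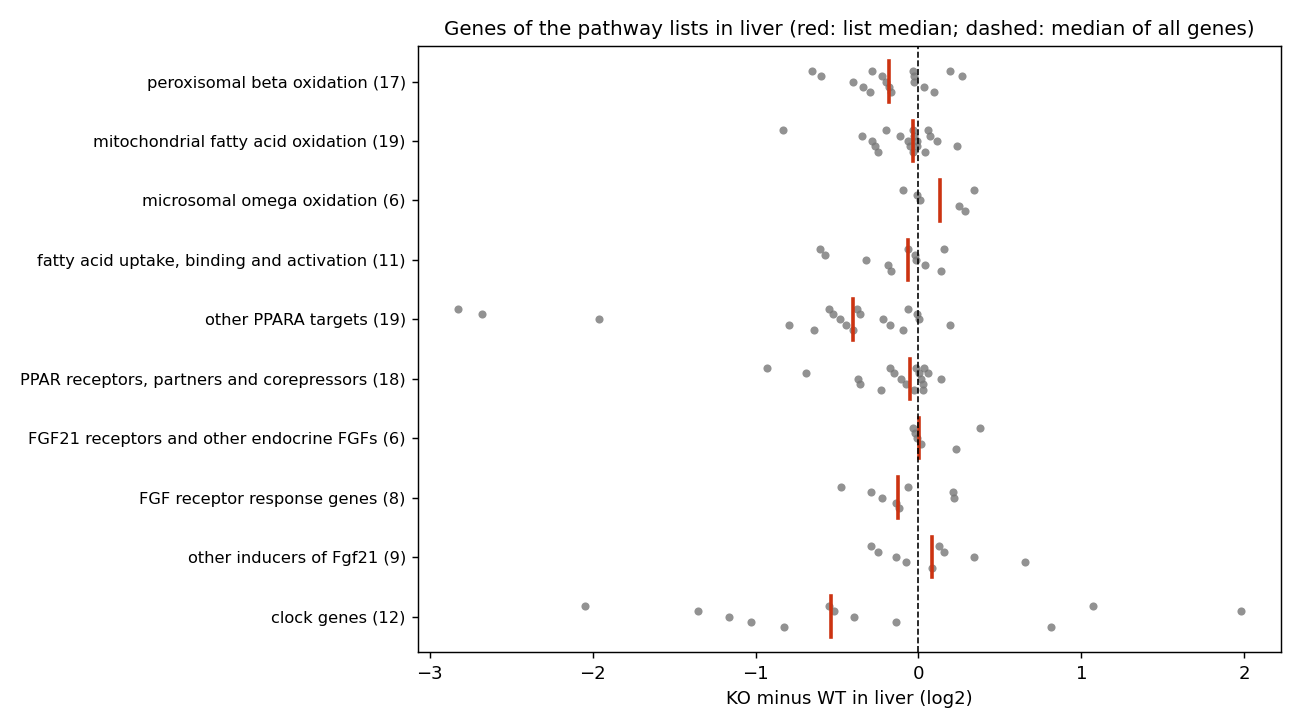
KO minus WT difference in liver in log2 units (horizontal axis) for every tested gene of the pathway lists described (vertical axis, number tested in brackets), with the list median in red and the median of all genes dashed. Of the 19 other PPARA targets 17 lie below 0, while the medians of the oxidation lists lie between -0.18 and 0.13.

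*Ppara* is known to have a daily rhythm. Of 12 clock genes tested in liver 8 had an unadjusted p below 0.05 (6.07% of all genes did), 3 higher and 5 lower in KO. *Arntl*, the activator of the clock, was at 0.39, 0.34 and -0.11 in KO livers and -1.57, -1.50 and -2.25 in WT livers. *Dbp*, a clock output factor, was at 4.78, 5.54 and 5.63 in KO and 7.45, 7.39 and 7.24 in WT. Neither gene overlapped between genotypes: the differences were 1.98 (SE 0.254) and -2.04 (SE 0.245), each with an adjusted p of 0.112. In fat both overlapped, with differences of 0.28 for *Arntl* and -0.20 for *Dbp*. The hour at which tissue was taken is not given in the labels, and its part in the *Ppara* difference was not tested.

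In skin, of 20 mitochondrial oxidation genes 18 were lower in KO and 2 higher (median -0.37, all genes -0.10). Of the 20, 4 had an unadjusted p below 0.05, against 7.88% of all genes. *Ucp3* (-1.01, SE 0.237, adjusted p = 0.280), *Mlycd* (-0.77, adjusted p = 0.555) and *Cpt1b* (-0.97, adjusted p = 0.555) had the smallest p. *Ucp3* and *Cpt1b* are known as muscle forms, and all 10 skeletal muscle markers, whose sums are given for *Pdk4*, were lower in KO skin. Without the array labelled WT 1 the list had 20 lower and 0 higher (median -0.30, all genes -0.06). Of 20 other PPARA targets 17 were lower in KO skin (median -0.37), led by *Aqp7*, *Plin5* and *G0s2* (-0.89, -0.96 and -0.68). An unadjusted p below 0.05 was found for 7 of the 20, against 7.88% of all genes. Without the array labelled WT 1, 15 were lower (median -0.41). The adipocyte markers summed to 1126 to 1830 in KO skin and 1907 to 2191 in WT skin, without overlap, and all 13 were well above background on every skin array. The 7 endothelial markers also separated, at 16.2 to 25.8 in KO and 29.5 to 43.2 in WT, 7 and 6 of them being well above background on every array of the group. The part of either cell type was not tested. In fat 18 of 20 mitochondrial genes were higher in KO and 2 lower (median 0.14, all genes 0.08). Of the 20, 1, *Acaa2*, had an unadjusted p below 0.05, against 7.93% of all genes. In the same samples the 5 erythroid markers summed to 377 to 528 in KO and 276 to 285 in WT, without overlap, with 4 and 3 of them well above background on every array of the group. The 11 macrophage markers summed to 59.1 to 416 in KO and 376 to 498 in WT (9 of 11 well above background on every array of either group), 7 of 8 tested being lower in KO. The 8 epididymis markers summed to 0.128 to 3.91 in KO and 0.431 to 50.8 in WT, with 0 and 1 of them well above background on every array of the group. The part of these cells in the fat values was not tested.

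Within tissues the members did not vary as 1 block. Over the 20 arrays, each centred on its tissue mean, the highest correlation of a member pair was that of *Cyp4a10* and *Cyp4a14* (r = 0.884). *Ppara* correlated with *Ehhadh* at 0.581, with *Cpt1a* at 0.461 and with *Fgf21* at -0.568. Among 13078 genes the most like *Ppara* were *Rhobtb1* (0.929), *Klf13* (0.899) and *Rprd2* (0.896), and the most like *Fgf21* were *Cks2* (0.854), *Serp1* (0.851) and *Mal2* (0.844). The *Fgf21* correlations include arrays on which its probe was not well above background, namely most skin arrays and fat KO 1. How far they depend on those arrays was not tested. All the correlations given here describe arrays that share slides, genotype and brightness, and no test was made of them.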

How the data were processed

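The intensity values are Agilent's background-subtracted processed signals, as deposited by the authors in scanner files made with Agilent Feature Extraction 10.7.3.1, per the file headers and the submitters' processing notes, which also name limma. The deposited value table holds log2 values of the authors, whose normalization and centring are not given in the sources used here. Spots of a probe were averaged, log2 intensities were set against each array's 75th percentile, and the probe with the highest mean was taken where a gene name had several (9020 gene names did). Genes were tested where 3 or more arrays of the tissue had them well above background, with limma 3.58.1 in R 4.3.3 (lmFit, eBayes, Benjamini-Hochberg adjustment at 0.05), per tissue for KO against WT and in 1 fit of 6 groups for tissues and for differences between tissues. The scripts were tested on simulated data. Fat WT 2 entered the reported comparisons through its value table column, and its scanner file entered alternatives only; the value table was fitted separately (4 against 4), its scale not joined to the arrays. The correlation of its scanner file with that column across probes was 0.773, against at least 0.972 for other samples. Precision is limited by the number of arrays, and 3 against 3 samples cannot reach an exact permutation p below 0.1.

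Named genes are all members, *Mapk8* as the targeted gene, in each list the called genes and otherwise up to 3 with the smallest p in a comparison, the 3 genes most correlated with *Ppara* and with *Fgf21*, and cell type markers and clock genes where they moved with a result; *Klb* was added in liver and fat as the co-receptor. The members and lists were chosen with earlier results of these data known. Slides each held 1 genotype of a given tissue, apart from slide 4 for fat, so slide and genotype cannot be told apart in liver and skin within the tissue. Same-numbered KO and WT samples deviated together with r from -0.227 to 0.185, so replicate numbers were not taken to pair samples. Alternatives were other normalizations, background corrections, filters and probe rules, the slide or replicate number as a block, and each sample left out. The results of 1 further gene list are not reported here.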

Additional observations from a re-analysis of the deposited data

Results flagged for a closer look

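In 36 groups of 4 or more samples checked with Dixon's critical value, 5 held a sample far from the others. Chance gives about 1 in 20 for independent checks, which these were not. The fat KO samples of each gene entered both from the arrays and from the deposited table, and *Fgf21* in fat KO 1 is counted under both. Whether 5 is more than chance gives was therefore not tested. *Ppara* in skin KO 1 was at -0.82, below the other 3 KO skin samples, on an array that was among the dimmest. *Fgf21* in fat KO 1 was at -5.47 on the array and at 4.13 in the deposited table, below the other 3 KO samples on both scales. *Cpt1a* in fat KO 1 was at 11.5 in the deposited table. *Ehhadh* in fat WT 2 was at 9.30 in the deposited table.

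The scanner file of fat WT 2, left out of the reported comparisons, had *Acot1* at 4.9, above each fat array used.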

How the results depend on the processing

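Between genotypes no member was called under any alternative run, and the causes of the changes below were not tested. Genes called were 2 in skin, 3 in liver, 2 in fat and 1 in the value table; between tissues the KO effect was called for 9 genes (liver against fat), 68 (skin against fat) and 30 (skin against liver). Leaving out 1 sample at a time gave 0 to 38, 0 to 27, 1 to 21, 0 to 4, 2 to 47, 0 to 149 and 2 to 100 in that order. Quantile normalization gave 0 in skin, 15 for liver against fat and 64 for skin against liver, with *Acot1* at 0.11 in skin and 0.029 for skin against liver. Normexp background gave 11 in liver and 5 for skin against liver, with *Ehhadh* at 0.015 in skin and 0.040 for skin against liver, *Acot1* at -0.017 in liver, *Cpt1a* at -0.028 for skin against fat and *Fgf21* at 0.24 for WT skin against fat. The value table for every tissue gave 1 in skin, 5 in liver, 104 for skin against fat and 62 for skin against liver, with *Ehhadh* at 0.11, 0.012 and 0.10 in skin, liver and skin against liver, *Acot1* at 0.0895 in skin and 0.074 for skin against liver, and *Cyp4a10* and *Cyp4a14* at 0.34 and 0.49 for skin against fat. Without a filter the counts were 0 in skin, 1 in liver, 4 in fat, 43 for skin against fat, 3 for skin against liver and 14884 for WT skin against fat (4275 higher and 4978 lower with it). With every array required they were 0, 6, 1 and 0 in skin, liver, fat and value table, then 2, 32 and 2 between tissues. The mean of all probes gave 0 in the value table, *Cpt1a* at 0.31 in skin and 0.57 for liver against fat, and *Cyp4a10* at 0.046 in liver and -0.035 in the value table. With the scanner file of fat WT 2 included, 0 genes were called in fat, 2 for liver against fat, 3 for skin against fat and 6010 for WT skin against fat, with *Cpt1a* at 0.093 in fat and -0.22 for skin against fat; *Acot1* in WT liver against fat (1.39, adjusted p = 0.115) and *Ehhadh* in WT skin against fat (-0.62, adjusted p = 0.434) lost their calls. With the slide as a random block 1 gene was called in skin within its tissue; with 6 groups fitted, 121, 20 and 54 in skin, liver and fat (within liver alone it could not be fitted). With the slide fixed there were 0, 5 and 1 in skin, liver and fat and 2, 0 and 4 between tissues, with *Cpt1a* at 0.043 in skin, *Ppara* at -0.14 in fat, *Cyp4a10* and *Acot1* at 0.21 and -0.21 for skin against fat and *Fgf21* at 0.42 for skin against liver. A fit of 6 groups alone called 129, 20 and 54 in skin, liver and fat. With the replicate block 0 genes were called in skin, liver, fat or the value table, with *Acot1* at 0.11 in skin and *Pdk4* at 0.12 in fat, the other direction. Without liver KO 1, KO 2 and WT 3, 27 genes were called, with *Pdk4* at -0.46, *Ehhadh* at 0.0050, *Cyp4a10* at 0.082 and *Cyp4a14* at 0.21. Without the dim skin KO 1 and WT 1, 0 were called, with *Ppara* at 0.089, *Cpt1a* at 0.045, *Ehhadh* at 0.22 and *Acot1* at 0.24. Leaving out 1 sample turned the sign of *Cpt1a* (-0.26 to 0.061), *Ehhadh* (-0.20 to 0.12) and *Acot1* (-0.19 to 0.30) in skin, of *Ehhadh* (-0.14 to 0.14), *Cyp4a10* (-0.25 to 0.18) and *Acot1* (-0.14 to 0.25) in liver, of *Fgf21* (-0.94 to 0.013) and *Pdk4* (-0.31 to 0.12) in fat, of *Ppara* (-0.061 to 0.18), *Pdk4* (-0.24 to 0.23), *Cyp4a10* (-0.23 to 0.52) and *Cyp4a14* (-0.45 to 0.58) in the value table, of *Cpt1a* (-0.11 to 0.26) and *Cyp4a14* (-0.69 to 0.20) for skin against fat, and of *Ehhadh* (-0.19 to 0.15) and *Acot1* (-0.30 to 0.19) for skin against liver. Of all member values under alternatives, 1593 kept direction and side of the threshold and 76 turned direction.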
